A study of Mus musculus with 6 samples.

Results

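Fibroblast growth factors (FGFs) are secreted ligands that signal through the receptor tyrosine kinases Fgfr1, Fgfr2, Fgfr3 and Fgfr4, with heparan sulphate as a co-factor, and the Sprouty proteins Spry1 and Spry2 are induced by the pathway and inhibit it. In the lung, mesenchymal Fgf7 and Fgf10 act mainly on the epithelial splice form of Fgfr2, Fgf10 is needed for airway branching, Fgf18 is known from the forming alveolus and from skeletal growth, and Fgf2 acts on many cell types, fibroblasts (FBs) among them. Fgfr3 and Fgfr4 act together in alveolar development. The 10 genes described here are 4 ligands (Fgf2, Fgf7, Fgf10, Fgf18), the 4 receptors and both Sprouty genes. They were taken by symbol from the count tables, which hold between 30828 and 32285 gene rows, and all 10 were found in each of the 6 tables.

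The data are single-cell RNA counts from 6 libraries, 1 per condition, each pooled from 3 mice. All FBs came from male Pdgfra-GFP reporter mice, 10 to 14 weeks old, in which GFP marks cells with an active Pdgfra promoter, and were sorted as GFP+ cells. For the single-dose experiment, mice received PBS (50 µl) or bleomycin by oropharyngeal aspiration once, and lungs were taken at day 14. The labels disagree on that dose, with 2 U/kg in the protocol and 4 U/kg among the sample's characteristics. For the repetitive experiment, PBS or bleomycin was aspirated weekly for 3 weeks, 50 µl each time, with 1 U/kg in the earlier weeks and 0.5 U/kg in the last. Lungs were taken 14 days after the last dose. For the organoids, sorted FBs of PBS-treated mice (normal FBs) or of mice that had received 2 U/kg bleomycin (fibrogenic FBs) were mixed with type 2 alveolar epithelial cells (AEC2s) and grown in Matrigel for 2 weeks. These FBs were taken 14 days after treatment. The sources disagree on the mixture, which had more AEC2s than FBs per the labels and more FBs than AEC2s per the study's methods. The AEC2s in both organoid conditions came from SpcCreER mice with a tomato reporter, induced with tamoxifen and without bleomycin, so that only the FBs differed in exposure.

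On mouse assembly GRCm38 (GENCODE M21), Fgf2 lies at chr3:37348346-37410108, Fgf7 at chr2:126034658-126091185, Fgf10 at chr13:118669791-118792115, Fgfr1 at chr8:25513654-25575718, Fgfr3 at chr5:33721674-33737068, Fgfr4 at chr13:55152640-55168759 and Spry1 at chr3:37639947-37644598, all on the plus strand. Fgf18 (chr11:33117430-33147400) and Spry2 (chr14:105891947-105896819) lie on the minus strand. The annotated Fgfr2 locus, chr7:130162451-133123350 on the minus strand, takes in many other genes, Ate1 among them on the same strand, so reads of those genes may be counted as Fgfr2, or its own reads be split with them, and all Fgfr2 levels, those of the repetitive FBs and T cells among them, are given with that limit. Fgf2, Fgf7, Fgf10, Fgfr1, Fgfr3 and Spry1 overlap an annotated gene on the opposite strand, and whether the counting used strand is not given in the sources used here. Fgf2 also overlaps Gm43439 on its own strand, so its levels carry the same kind of limit. The counts come from the 3′ ends of transcripts and cannot separate the splice forms of Fgfr2.

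The bases just before the annotated starts of Fgf7, Fgfr3, Fgfr4 and Fgf18 are shown because these were the 4 genes whose level differed most between the single-dose libraries, 3 of them lower and Fgf18 higher after bleomycin. Sequences are from RefSeq on GRCm38.p6, printed on the strand of the gene, with matches to a searched motif in capitals. The stretches are chr2:126034408-126034657 (Fgf7), chr5:33721474-33721673 (Fgfr3), chr13:55152568-55152639 (Fgfr4) and chr11:33147401-33147650 (Fgf18).
Fgf7: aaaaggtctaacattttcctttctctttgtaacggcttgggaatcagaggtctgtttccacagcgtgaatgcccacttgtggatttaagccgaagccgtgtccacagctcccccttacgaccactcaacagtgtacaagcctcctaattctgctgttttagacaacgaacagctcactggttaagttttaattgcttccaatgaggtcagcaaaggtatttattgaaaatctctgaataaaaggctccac
Fgfr3: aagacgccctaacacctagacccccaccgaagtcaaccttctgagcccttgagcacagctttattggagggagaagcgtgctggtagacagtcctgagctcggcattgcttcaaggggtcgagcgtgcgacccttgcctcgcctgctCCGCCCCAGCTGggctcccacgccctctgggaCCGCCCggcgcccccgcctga
Fgfr4: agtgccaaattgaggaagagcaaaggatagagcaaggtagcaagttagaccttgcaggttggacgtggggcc
Fgf18: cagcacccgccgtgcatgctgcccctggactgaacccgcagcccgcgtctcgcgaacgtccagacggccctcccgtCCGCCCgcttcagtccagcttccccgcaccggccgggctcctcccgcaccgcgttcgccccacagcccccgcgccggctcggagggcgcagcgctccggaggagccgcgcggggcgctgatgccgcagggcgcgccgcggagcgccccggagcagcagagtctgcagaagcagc

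The promoter table matched 9 of the 10 genes, Fgfr1 being the one without an entry. Over the 250 bases before the RefSeq start, Fgf7 had a GC content of 43.6% and Fgf18 of 77.2%, against a median of 52.4% over all promoters. Motifs were searched on both strands as the letters TGANTCA (AP-1), GGAATG (TEAD), CAGCTG (an E-box), GGGCGG (GC box) and CCGGAAG (ETS). Fgf7 and Spry2 held none of them, Fgf18 held a GC box 174 bases before the start, and Fgfr3 held an E-box and 3 GC boxes, of which the first adjoins the E-box and the last lies past the stretch shown. Spry1 held a TEAD and a GC box match, Fgf2 and Fgf10 a GC box each and Fgfr4 2 GC boxes outside the stretch shown, and Fgfr2 held none. In all 32851 promoters, windows of this length held the AP-1 letters in 6.75%, TEAD in 12.6%, the E-box in 13.0%, the GC box in 32.7% and ETS in 6.91%. The matches are a description of letters and not of bound sites.

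Libraries held 1015 to 10737 barcodes and 7201081 to 238618743 UMIs, of which the 10 genes together made up 5523 to 116941. The repetitive bleomycin library was shallow per cell, with 43.7% of barcodes under 2000 UMIs against 5.31% in its PBS library, and the organoid library with fibrogenic FBs had 33.5% such barcodes against 15.9%. Any pair of libraries shared 0 to 30 barcode sequences. In the lung FBs all 6 FB markers stood above 10 CPM in every library and none of 6 epithelial markers did. The AEC2 gene Sftpc, not among these markers, was 64.7 CPM and 67.4 CPM in the single-dose PBS and bleomycin FBs and 15.5 CPM and 35.4 CPM in the repetitive FBs, where it was called higher after bleomycin (log2 ratio 1.14), and its part in the repetitive results was not tested. Summed myeloid markers were 45.1 CPM and 90.8 CPM in the single-dose PBS and bleomycin FBs and 11.2 CPM and 36.1 CPM in the repetitive FBs. A level is the UMIs of a gene summed over the FBs or the epithelial cells of a library, divided by all of their UMIs and scaled to a common total (CPM), with an exact 95% Poisson interval. A log2 ratio compares both levels after adding 1 CPM, and the interval beside it is that of the ratio of the rates without the added CPM, so for the lowest genes the ratio can lie outside it. With 1 library per condition there is no replicate and no test between conditions, and all intervals cover counting error only. A gene is called different when it has at least 20 UMIs and a log2 ratio of 1 or more either way. Levels are not compared between genes, nor between experiments, which used different annotations, except in the correlations over clusters of both experiments, which are given with and without each experiment's mean.

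After a single dose of bleomycin, FBs held less Fgf7, Fgfr3 and Fgfr4 and more Fgf18 than after PBS. These 4 of the 10 genes were called, beside 13.2% of the 12051 genes measured, and 3 were lower, beside 3.81% of all genes. The median log2 ratio of the 10 genes was −0.25, against 0.09 over all genes. In summed counts, fewer cells of a type and less RNA per cell cannot be told apart.

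Of the ligands, Fgf7, also called keratinocyte growth factor, stood at 167 CPM (95% interval 156.5 to 177.3) in the 910 PBS FBs and at 68.5 CPM (63.5 to 73.8) in the 825 bleomycin FBs. The log2 ratio was −1.27 (−1.42 to −1.14), so that the bleomycin level was 0.411 times the PBS level. Fgf10 was lower by less, 40.8 CPM in PBS against 23.8 CPM in bleomycin (log2 ratio −0.75, interval −1.04 to −0.51), and was not called. Fgf2 went the other way, with 43.6 CPM in PBS and 68.9 CPM in bleomycin (log2 ratio 0.65, 0.45 to 0.87). Fgf18 was scarce, with 17 UMIs after PBS (2.82 CPM, 1.64 to 4.51) against 79 UMIs after bleomycin (7.72 CPM, 6.11 to 9.62). Its log2 ratio was 1.19 (0.68 to 2.30).

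Among the receptors, Fgfr1, a receptor of mesenchymal cells, hardly differed, with 158 CPM in PBS and 172 CPM in bleomycin (log2 ratio 0.12, 0.01 to 0.24). Fgfr3 was 115 CPM after PBS (106.7 to 124.0) against 56.7 CPM after bleomycin (52.2 to 61.5), a log2 ratio of −1.01 that lies at the limit used for a call. Fgfr4 showed the largest difference of the 10 genes, 51.2 CPM (45.7 to 57.3) against 16.6 CPM (14.2 to 19.3), with a log2 ratio of −1.57 (−1.90 to −1.35). Fgfr2 was low in both libraries, at 8.13 CPM in PBS and 13.7 CPM in bleomycin (log2 ratio 0.69, 0.27 to 1.25). Of the Sprouty genes, Spry1 was 220.2 CPM in PBS and 157 CPM in bleomycin (log2 ratio −0.48, −0.59 to −0.38). Spry2 was level, at 30.02 CPM and 29.7 CPM, and the interval of its log2 ratio ran from −0.29 to 0.26.

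After repetitive exposure, Fgf18 was again higher in bleomycin FBs and Fgfr4 lower, and these were the 2 genes called, beside 7.31% of the 17065 genes measured. Of all genes 5.68% were called higher and 1.63% lower. The median log2 ratio of the 10 genes was −0.40 and that of all genes 0.10. Fgf18 stood at 2.23 CPM (1.86 to 2.65; 130 UMIs) in the 5296 PBS FBs and at 10.3 CPM (9.53 to 11.2; 594 UMIs) in the 8009 bleomycin FBs, 4.63 times the PBS level, with a log2 ratio of 1.81 after the added CPM and a rate interval of 1.94 to 2.497. Fgf7 was 157 CPM in PBS and 115 CPM in bleomycin (log2 ratio −0.44, −0.49 to −0.40), and Fgf10 was 182 CPM and 133 CPM (log2 ratio −0.45, −0.49 to −0.41). Fgf2 did not differ beyond counting error, at 94.7 CPM and 97.4 CPM (log2 ratio 0.04, −0.01 to 0.09).

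Each receptor had the direction it had after a single dose. Fgfr4 was 82.9 CPM after PBS (80.5 to 85.2) against 39.6 CPM after bleomycin (38.0 to 41.2), a log2 ratio of −1.05 (−1.14 to −0.99). Fgfr3 was 116 CPM and 69.5 CPM (log2 ratio −0.73, −0.80 to −0.68), Fgfr1 was 161 CPM and 177 CPM (0.14, 0.10 to 0.18), and Fgfr2 was 71.1 CPM and 85.1 CPM (0.26, 0.20 to 0.32). Both inhibitors were lower in bleomycin. Spry1 was 132 CPM in PBS and 104 CPM in bleomycin (log2 ratio −0.35, −0.40 to −0.30). Spry2 was 44.1 CPM and 21.6 CPM, and its log2 ratio of −0.99 (−1.13 to −0.93) lay just inside the limit for a call.

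**Figure D1:**
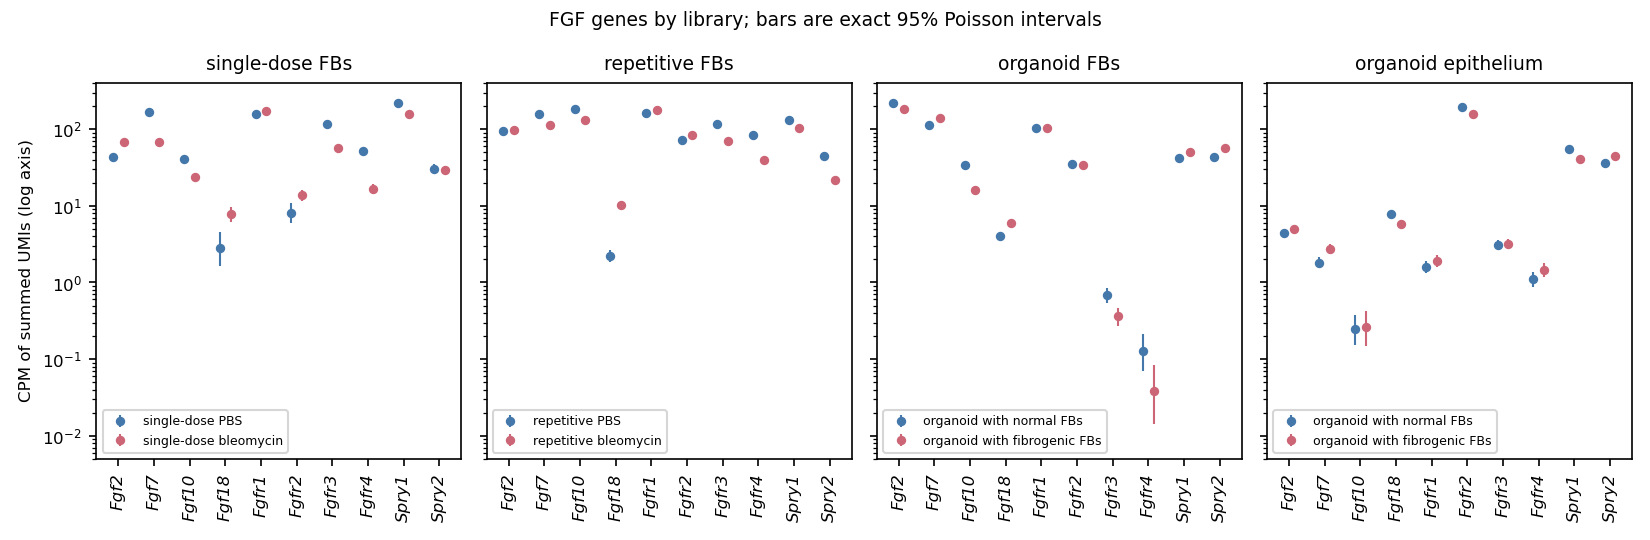
Levels of the 10 genes in CPM (log axis) in the FBs of the single-dose and repetitive lung libraries, the organoid FBs and the organoid epithelium, with exact 95% Poisson intervals as bars and 1 point per library. Fgf7, Fgf10, Fgfr3 and Fgfr4 are lower and Fgf18 is higher in bleomycin FBs of both lung experiments, while in the organoids Fgfr3 and Fgfr4 are below 1 CPM in FBs and Fgfr2 is higher in the epithelium than in FBs.

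**Figure D2:**
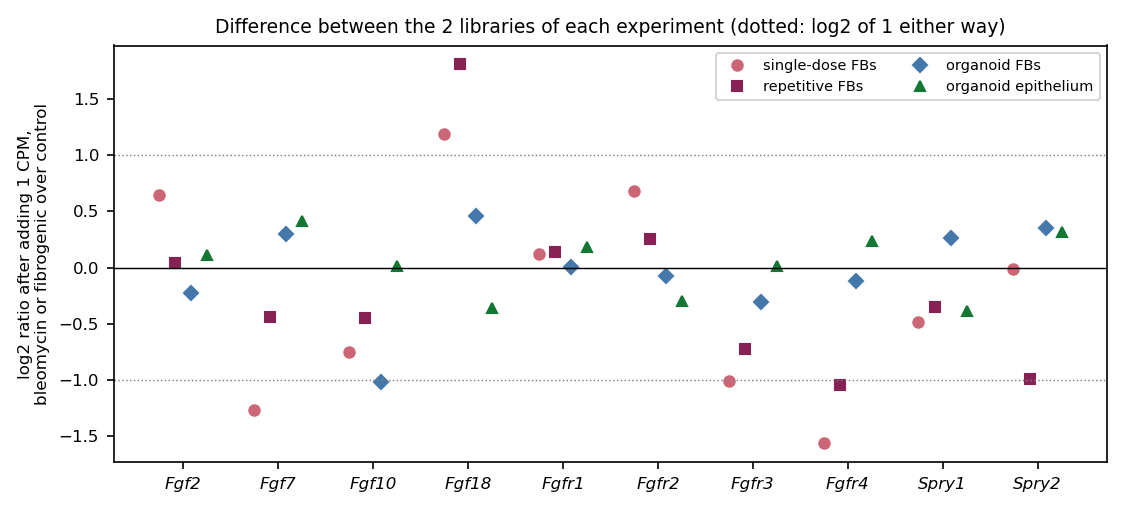
Log2 ratio after adding 1 CPM for each gene, bleomycin over PBS in lung FBs and fibrogenic over normal in organoid FBs and organoid epithelium, 1 point per comparison. Dotted lines mark a log2 ratio of 1 either way, which 4 genes pass in single-dose FBs, 2 in repetitive FBs, 1 in organoid FBs and none in the organoid epithelium.

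The share of FBs in which a gene was seen moved as its level did for the genes lower after bleomycin. Each cell was thinned to 2000 UMIs, which left out 55 PBS and 40 bleomycin FBs of the single-dose experiment and 130 PBS and 3236 bleomycin FBs of the repetitive one. Fgf7 was then seen in 27.3% of single-dose PBS FBs (95% exact binomial interval 24.3 to 30.4) and 13.6% of bleomycin FBs (11.3 to 16.2), against 60.7% and 49.3% without thinning. Fgfr3 was seen in 21.2% and 11.6% of the same thinned FBs and Fgfr4 in 9.71% and 3.69%. The 26 thinned T cells of the single-dose bleomycin library, with a median of 4398 UMIs against 11508 UMIs in its FBs, held a UMI of Fgf7 in 3.85% (0.0973 to 19.6) and of Fgfr3 and Fgfr4 in 0% each, with an interval up to 13.2%. So few T cells could not tell the bleomycin FB shares of these 3 genes from background. In repetitive FBs Fgf7 was seen in 24.7% (23.5 to 25.9) and 19.1% (18.0 to 20.3), against 70.2% and 37.2% without thinning. In T cells the thinned Fgf7 share was 4.59% in the PBS library and 5.61% in the bleomycin library. Whether T cells made any Fgf7 themselves was not tested. The median depth of T cells was 3614 and 3086 UMIs, against 10612 and 2899 UMIs in the FBs.

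Fgf10 was seen in 23.7% of repetitive PBS FBs and 19.0% of bleomycin FBs after thinning, against 4.59% and 2.80% of T cells, and without thinning in 60.3% and 32.7% of FBs. Fgfr4 was seen in 15.4% and 7.48% of these FBs and in 0% and 3.74% of T cells, where the exact interval of 0 of 109 T cells runs up to 3.33% and that of the bleomycin T cells from 1.03 to 9.30%, which takes in the bleomycin FB share. Fgf18 was seen in 0.310% (0.177 to 0.502) of PBS FBs and 1.97% (1.59 to 2.40) of bleomycin FBs. The T cell intervals, up to 3.33% in the PBS library and from 0.0237 to 5.10% in the bleomycin library, take in both shares, so the Fgf18 shares were not told from background at this depth. Fgfr2 was seen in 13.4% and 13.8% of repetitive FBs and in 8.26% (3.85 to 15.1) and 13.1% (7.34 to 21.0) of T cells. At this depth the FB share could not be told from the T cell share in either library. Summed over both repetitive libraries, T cells held Fgfr2 at 52.2 CPM against 78.0 CPM in FBs, whereas they held Col1a1 at 30.9% of its FB level.

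FBs were clustered without the 10 genes and without the other listed genes, so the levels by cluster below did not shape the clusters. In the single-dose experiment the PBS cells fell mostly into a LipoFB-like cluster (360 PBS and 12 bleomycin cells), a cluster led by Kcnk2 (235 and 11) and a cluster led by Atf3 and Fos (227 and 3). The bleomycin cells fell mostly into a cluster led by Lcn2 and Hp (1 PBS and 268 bleomycin cells), a cluster with Sfrp1 and Saa3 among its leading genes (0 and 238) and a cluster led by Ube2c (4 and 112). Among the 10 leading genes of this last cluster were the cycling genes Ube2c, Cdca3, Birc5, Cdc20, Ccna2 and Pclaf, and it raised all 8 MyoFB markers and 3 of 6 cycling markers, so it was not named. A MatrixFB-like cluster held 75 PBS and 178 bleomycin cells and was the one with at least 20 cells of both libraries. Most of each library's FBs were therefore in clusters that the other library barely filled. The LipoFB-like name needed markers raised over all other FBs, so a cluster without it may still hold LipoFBs. The paper also describes LipoFBs from bleomycin lungs, with Mfap4, Adamtsl2 and Hp among their enriched genes. These 3 genes are among the leading genes of the Lcn2 cluster. Whether both are the same cells was not tested. A Ductal FB-like cluster of 11 cells, with Fgf18 among its leading genes, was too small to describe.

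Fgf7 divided these clusters in 2 groups that did not overlap. It stood at 189 CPM (170.5 to 208.8) in the LipoFB-like cluster, 167 CPM in the Kcnk2 cluster and 165 CPM in the Atf3 cluster, whose intervals overlapped one another. It stood at 77.5 CPM in the cluster with Sfrp1 and Saa3, 74.2 CPM in the Lcn2 cluster, 57.5 CPM (47.3 to 69.3) in the MatrixFB-like cluster and 49.3 CPM (40.4 to 59.7) in the Ube2c cluster. Fgf10 was highest in the Kcnk2 cluster, at 62.3 CPM (51.85 to 74.2), and lowest in the Ube2c cluster, at 12.1 CPM (7.91 to 17.7). Among these clusters Fgf18 was highest in the MatrixFB-like one, at 18.8 CPM (13.2 to 26.1), and had 0 UMIs in the LipoFB-like and Atf3 clusters. Fgf2 was highest in the Ube2c cluster at 89.4 CPM and lowest in the LipoFB-like cluster at 40.8 CPM.

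The receptors lower after bleomycin were the ones with the widest range between clusters. Fgfr4 was 85.6 CPM (73.4 to 99.3) in the LipoFB-like cluster and 63.1 CPM in the Atf3 cluster, was 41.5 CPM in the Lcn2 cluster and 14.95 CPM in the Kcnk2 cluster, and was 1.05 CPM in the MatrixFB-like and 1.86 CPM in the Ube2c cluster. Fgfr3 was 135 CPM, 116 CPM and 112 CPM in the Kcnk2, LipoFB-like and Atf3 clusters and 17.8 CPM and 13.0 CPM in the MatrixFB-like and Ube2c clusters. Fgfr1 ran the other way and was highest in the MatrixFB-like cluster, at 211 CPM, and lowest in the Atf3 cluster, at 119 CPM. Spry1 was 266 CPM in the Atf3 cluster, the highest, and 90.8 CPM in the Ube2c cluster, the lowest.

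In the repetitive experiment 15 FB clusters were described. The PBS cells fell mostly into 2 LipoFB-like clusters (1506 PBS and 15 bleomycin cells, and 1413 and 22), a cluster led by Nr4a2 and Maff (887 and 34) and a cluster led by Agtr1b (666 and 68). The bleomycin cells fell mostly into 2 unnamed clusters with Hp among their leading genes. One of them (16 and 2373 cells) was shallow, with a median of 1217 UMIs, was led by AY036118, Slc39a1, Cdk8 and Lars2, and held 29.6% of the bleomycin FBs but 3.01% of the summed FB UMIs. The other (18 and 1833), led by Nnat and Hp, had a median of 12991 UMIs. Further bleomycin cells were in a shallow MatrixFB-like cluster (22 and 1276), a MyoFB-like cluster (0 and 555) and a cluster led by Il6 and Cxcl1 (6 and 433). A pair of further MatrixFB-like clusters (237 and 598, and 320 and 316) and a cluster led by Adh7 and Aqp1 (193 and 183) held cells of both libraries.

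Fgf10 was highest in the clusters led by Nr4a2 and by Agtr1b, at 273 CPM (264.3 to 282.3) and 272 CPM (261.1 to 282.9), which did not differ beyond counting error. Next were the Il6 cluster at 198 CPM (188.2 to 209.0) and the LipoFB-like clusters at 143 CPM and 132 CPM, and the MatrixFB-like clusters ranged from 37.9 CPM to 82.2 CPM. Fgf7 was highest in the Agtr1b cluster at 194 CPM (185.3 to 203.7), stood at 161 CPM and 165 CPM in the LipoFB-like clusters, and was 68.6 CPM (61.6 to 76.2) in the MyoFB-like cluster. Fgf18 was 26.1 CPM (21.8 to 30.9) in the MyoFB-like cluster, 18.5 CPM (15.95 to 21.4) in the larger deep MatrixFB-like cluster, and 0.172 CPM and 0.302 CPM in the LipoFB-like clusters. Fgf2 was 157 CPM in the MyoFB-like cluster and 132 CPM in the Il6 cluster, and 35.9 CPM in one of the MatrixFB-like clusters.

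Fgfr4 again marked the LipoFB-like clusters, at 157 CPM (150.7 to 164.3) and 115 CPM (110.2 to 120.3), and was 2.32 CPM and 3.05 CPM in the 2 deeper MatrixFB-like clusters and 7.84 CPM in the MyoFB-like cluster. Fgfr3 was highest in the Agtr1b cluster at 155 CPM (146.5 to 163.0) and the Adh7 cluster at 142 CPM (129.7 to 154.5), and lowest among clusters of over 50 cells in the MyoFB-like cluster at 12.9 CPM. The Adh7 cluster therefore held Fgfr3 with little Fgfr4 (8.25 CPM). Spry2 separated clusters of the PBS library from one another, with 79.0 CPM in the Nr4a2 cluster and 57.1 CPM in one LipoFB-like cluster against 16.2 CPM in the other and 14.1 CPM in the Agtr1b cluster. The 34 mesothelial-like cells (MEFB-like) stood apart, with 306 CPM Fgfr2 and 188 CPM Fgf1 and only 5.14 CPM Fgf7 and 2.57 CPM Fgf10. They held 0.336% of the summed FB UMIs, so the low levels rest on very few UMIs.

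Within the PBS libraries alone, Fgf7, Fgfr3, Fgfr4 and Fgf18 also differed between FB classes. MatrixFB-like cells of the single-dose PBS library held 49.7 CPM Fgf7 against 190.5 CPM in LipoFB-like cells (log2 ratio −1.92, −2.63 to −1.32), 2.26 CPM against 87.2 CPM Fgfr4 (−4.76) and 29.4 CPM against 118 CPM Fgfr3 (−1.97). Fgf18 was 13.6 CPM in the MatrixFB-like cells and had 0 UMIs in the LipoFB-like cells, at least 9.02-fold higher against the floor of 3 UMIs. In the repetitive PBS library the same contrasts were 66.9 CPM against 163 CPM for Fgf7 (−1.27, −1.46 to −1.12), 4.40 CPM against 133 CPM for Fgfr4 (−4.63), 25.1 CPM against 117 CPM for Fgfr3 (−2.17) and 11.2 CPM against 0.231 CPM for Fgf18 (3.31). Fgfr1 was higher in MatrixFB-like cells, 232 CPM against 139 CPM (0.73, 0.63 to 0.83). The LipoFB-like cells of the repetitive experiment took in a cluster with Atf3 among its leading genes. The single-dose cluster led by Atf3 and Fos was unnamed and left out, so the LipoFB-like classes may not match between the experiments. The part of class sizes in the library differences was not tested.

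Compared inside the MatrixFB-like class, which both libraries filled, Fgf7 was not lower after bleomycin. In the single-dose experiment it was 49.7 CPM in 75 PBS cells and 59.9 CPM in 178 bleomycin cells (log2 ratio 0.26, −0.42 to 1.01), which is within counting error. In the repetitive experiment it was 66.9 CPM in 579 PBS cells and 98.5 CPM in 2190 bleomycin cells (0.55, 0.37 to 0.75). Single-dose Fgf10 was level in this class, 18.1 CPM and 18.4 CPM (0.02, −1.16 to 1.37), against −0.75 over all single-dose FBs. Repetitive Fgf10 kept its direction, 77.9 CPM against 53.2 CPM (−0.54, −0.74 to −0.36). Fgf18 was 11.2 CPM and 15.7 CPM (0.45, 0.02 to 0.96), Fgfr4 was 4.40 CPM and 5.75 CPM (0.32, −0.36 to 1.19) and Fgfr3 was 25.1 CPM and 22.1 CPM (−0.17, −0.51 to 0.15). In single-dose MatrixFB-like cells Fgfr3 was 29.4 CPM and 14.3 CPM (−0.99, −2.11 to 0.08), Fgfr1 was 280.3 CPM and 190 CPM (−0.56, −0.87 to −0.25), against a log2 ratio of 0.12 over all FBs, Spry1 was 149 CPM and 82.3 CPM (−0.85, −1.30 to −0.40) and Fgfr2 had 0 UMIs in PBS and 26 UMIs, or 17.7 CPM, in bleomycin, at least 2.61-fold higher against the floor. The bleomycin cells of the class were spread over its clusters differently from the PBS cells: the shallow cluster held 22 of the 579 PBS and 1276 of the 2190 bleomycin cells.

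By single cluster, 7 repetitive clusters held at least 20 cells of both libraries. Fgf7 was higher in bleomycin cells in 4 of them and lower in 3, with a median log2 ratio of 0.01. The one Fgf7 interval that left out 0 was in the larger deep MatrixFB-like cluster, 56.6 CPM in PBS and 98.4 CPM in bleomycin cells (0.79, 0.54 to 1.06). Fgf18 was higher in 4 and lower in 3, with no interval that left out 0 and a median log2 ratio of 0.21, against 1.81 over all FBs, and 4 of these clusters held at most 1 UMI of it in 1 of the libraries. Fgf10 was lower in 5 of 7, most in a MatrixFB-like cluster with Ccl8 and Penk among its leading genes, 55.6 CPM against 11.7 CPM (−2.15, −3.17 to −1.43). Fgfr3 was lower in 4 of 7, all 4 with intervals below 0, and higher in the 22 bleomycin cells that remained in the second LipoFB-like cluster, 118 CPM against 192 CPM (0.70, 0.17 to 1.19). Fgfr4 was lower in 6 of 7, with 1 interval below 0, and was 156 CPM in PBS and 226 CPM in bleomycin cells of that LipoFB-like cluster (0.52, 0.04 to 0.98). Spry2 was lower in 5 of 7, with 3 intervals below 0, and Spry1 in 6 of 7, with 2 below 0.

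**Figure D3:**
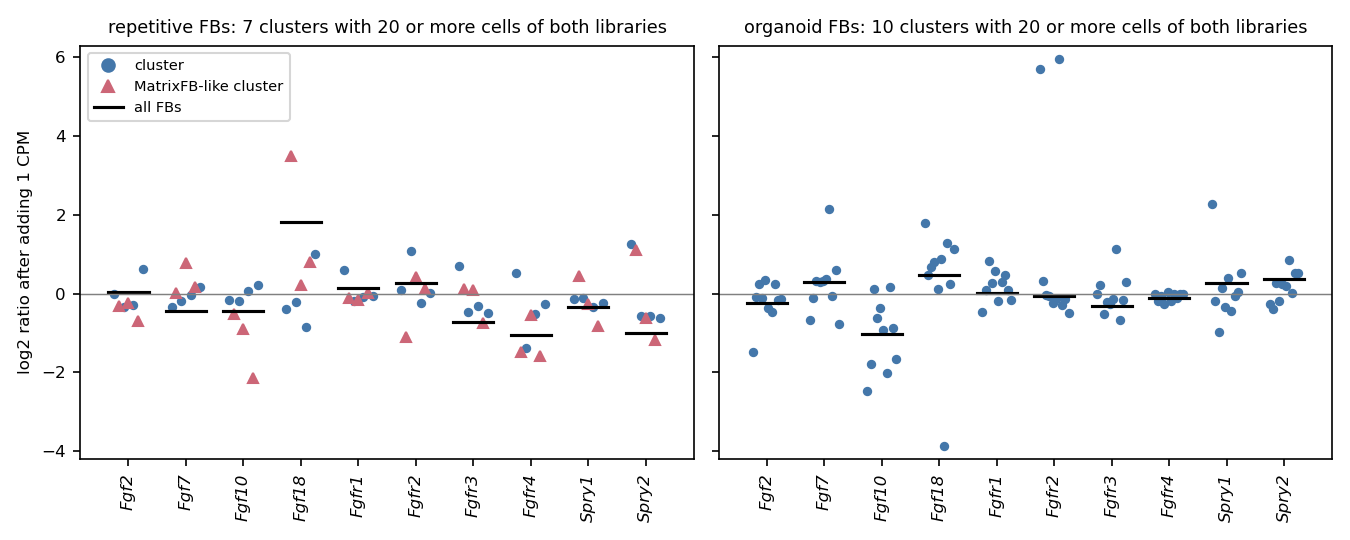
Log2 ratio after adding 1 CPM within each cluster that held at least 20 cells of both libraries, 7 in repetitive FBs and 10 in organoid FBs, with MatrixFB-like clusters as triangles and the ratio over all FBs as a black line. Fgf7 lies on both sides of 0 in repetitive clusters although it is lower over all FBs, and Fgf10 is below 0 in 8 of 10 organoid clusters.

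The repetitive MyoFB-like cells all came from the bleomycin library and were compared there with MatrixFB-like cells. They held more Fgf2 (157 CPM against 69.3 CPM, log2 ratio 1.17, 1.04 to 1.32), more Spry1 (119 CPM against 57.6 CPM, 1.03) and more Fgf18 (26.1 CPM against 15.7 CPM, 0.70, 0.40 to 1.07). Fgf10 (0.44, 0.25 to 0.63) and Fgfr2 (0.61, 0.44 to 0.80) were also higher. They held less Fgf7 (68.6 CPM against 98.5 CPM, −0.52, −0.70 to −0.35), less Spry2 (19.6 CPM against 31.6 CPM, −0.66, −1.02 to −0.37), less Fgfr3 (−0.73, −1.19 to −0.38) and less Fgfr1 (−0.20, −0.31 to −0.09), and the Fgfr4 interval took in 0. The transcription factor gene Etv4, a target of FGF and ERK signalling, was 15.5 CPM against 0.354 CPM, and Dusp6, an ERK phosphatase that the pathway induces, was 65.3 CPM against 19.8 CPM. In the single-dose bleomycin library the cluster led by Ube2c and other cycling genes was set beside MatrixFB-like cells. Fgf2 was 90.1 CPM against 49.7 CPM (0.85, 0.46 to 1.27), Etv4 was 28.2 CPM against 0.680 CPM and Dusp6 was 88.2 CPM against 33.3 CPM. Fgf18 went the opposite way there, at 6.10 CPM in the Ube2c cluster and 20.4 CPM in MatrixFB-like cells (−1.59, −2.80 to −0.76), Spry2 was lower (27.2 CPM against 46.3 CPM, −0.74, −1.30 to −0.24), and Spry1 was level (0.08, −0.26 to 0.42). The intervals of the other 6 genes took in 0. The part of cycling in these values was not tested.

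Of 64 other genes of the pathway, 42 were measured in single-dose FBs, 11 were called higher after bleomycin and none lower, with a median log2 ratio of 0.47 against 0.09 over all genes. In repetitive FBs 50 were measured, 9 were called higher and 1 lower, with a median of 0.36 against 0.10. Of all genes, 9.36% were called higher after a single dose and 5.68% after repetitive exposure. Heparan sulphate genes, of which 17 were measured in each experiment, made up 8 of the 11 and 5 of the 9. They were the syndecan Sdc1 (3.98 CPM in PBS and 35.2 CPM in bleomycin after a single dose, 2.11 CPM and 19.8 CPM after repetitive exposure), the syndecan Sdc3 (3.48 and 21.5 CPM, 1.67 and 12.7 CPM), the glypican Gpc4 (3.65 and 17.4 CPM, 6.59 and 18.1 CPM) and the extracellular sulphatase Sulf1 (18.2 and 55.8 CPM, 52.4 and 171 CPM) in both experiments. Hspg2 (perlecan), the chain polymerase Ext1 and the sulphotransferases Hs2st1 and Hs6st1 were called after a single dose alone, with log2 ratios of 1.35, 1.23, 1.05 and 1.05, and were higher by 0.96, 0.90, 0.71 and 0.94 after repetitive exposure. The glypican Gpc6 was called after repetitive exposure alone (57.7 and 159 CPM), with a log2 ratio of 0.61 after a single dose. Whether these calls differ between the experiments was not tested. The lowest of this list were Gpc3 (log2 ratio −0.97) after a single dose and Sdc4 (−0.17) after repetitive exposure, and the medians were 0.69 and 0.90.

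Of the feedback and target genes, Etv4 and Dusp5, a nuclear ERK phosphatase, were called higher in both experiments and Dusp6 was the lowest of the list in both. Etv4 had 0 UMIs in single-dose PBS FBs and 7.04 CPM in bleomycin FBs, 14.1 times the floor of 3 UMIs. It was 0.275 CPM and 2.63 CPM in repetitive FBs. Dusp5 was 1.82 CPM and 19.7 CPM, then 3.26 CPM and 8.04 CPM. Dusp6 had log2 ratios of −0.48 and −0.57. By cluster, Etv4 was 27.9 CPM in the single-dose Ube2c cluster and at most 2.76 CPM in the others, and in repetitive FBs it was highest in a shallow cluster led by Ptx3 and H2afz (26.9 CPM), in the MyoFB-like cluster (15.5 CPM) and in MEFB-like cells (12.9 CPM).

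Of the other FGF ligands, 2 were measured in single-dose FBs, Fgf11 (−0.42) and Fgf1 (0.73), and neither was called. Of 8 measured in repetitive FBs, Fgf23, a hormone of phosphate balance, was 0.292 CPM in PBS and 6.27 CPM in bleomycin, and Fgf14, which acts inside the cell, was 0.292 CPM and 1.86 CPM, while Fgf11 was the lowest (0.04). Fgf23 was highest in a cluster of 59 cells led by Ccl20 and Saa1 (37.2 CPM) and in the Il6 cluster (22.3 CPM). The cluster of 59 cells held 0.116% of the summed FB UMIs, so its level rests on few UMIs and the order of these clusters is not certain. Of the co-receptors and binding proteins, Flrt3, a membrane protein that binds FGF receptors, had 0 UMIs in single-dose PBS FBs. It was 2.25 CPM in bleomycin FBs, 4.52 times the floor, and had a log2 ratio of 0.92 in repetitive FBs. Fgfbp3, a carrier of FGF ligands, was the lowest in both (−0.23 and 0.07). The list medians did not move with Flrt3 and Etv4 placed at their fold over the floor. Of the adaptors, Shb was called lower after repetitive exposure (45.3 and 18.9 CPM), the lowest after a single dose was Frs3 (−0.97), and Plcg1 was the highest in both (0.71 and 0.36).

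For Fgf7, Fgf10, Fgf18 and Fgfr2, the genes whose log2 levels ran most alike were taken by Pearson's r over the 21 lung FB clusters with at least 50 cells, among 6876 genes. The points share libraries and depth and come from experiments with different annotations, so the values as measured carry any offset between the experiments, and all are a description. The genes closest to Fgf7 were Sh3bp5 (r = 0.94), Tns1 (0.92) and Fam13a (0.92). Among the closest to Fgf10 were Unc5c (0.94) and Rufy1 (0.93), among the closest to Fgf18 were Dclk1 (0.91) and Cilp (0.91), and closest to Fgfr2 were Ehmt1 (0.98), Stk3 (0.97) and Tnks (0.97). With the mean of each experiment subtracted, Fgf7 was closest to Sh3bp5 (0.95) and Fgf18 to Dclk1 (0.92), but Fgf10 was then closest to Lrat (0.88), the enzyme that stores retinol as esters, and Fgfr2 to Asxl2 (0.87).

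In the organoids, FBs that came from bleomycin-treated mice held less Fgf10 than FBs from PBS mice after 2 weeks of culture with AEC2s. Fgf10 was 33.8 CPM (32.7 to 34.9) in 1987 normal and 16.2 CPM (15.5 to 16.8) in 4798 fibrogenic FBs, a log2 ratio of −1.02 (−1.14 to −0.99), and was the 1 gene of the 10 called, beside 0.949% of the 17911 genes measured. The median log2 ratio was −0.03 for the 10 genes and −0.01 for all genes. Fgf7 was 114 CPM and 140.4 CPM (0.30, 0.27 to 0.34), higher in the fibrogenic FBs. Fgf2 was 217 CPM and 185 CPM (−0.23, −0.25 to −0.20), and Fgf18 was 4.06 CPM and 5.97 CPM (0.46, 0.39 to 0.72).

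Of the receptors, organoid FBs held Fgfr1 at 103 CPM in both libraries (log2 ratio 0.00, −0.03 to 0.04) and Fgfr2 at 35.4 CPM and 33.6 CPM (−0.07, −0.13 to −0.01). Fgfr3 and Fgfr4 were close to absent in culture, with 75 and 56 UMIs of Fgfr3 (0.685 CPM and 0.360 CPM) and 14 and 6 UMIs of Fgfr4 (0.128 CPM and 0.0386 CPM). Summed over all FBs, both inhibitors were somewhat higher in the fibrogenic ones. Spry1 was 41.7 CPM and 50.4 CPM (0.26, 0.22 to 0.32), and Spry2 was 44.0 CPM and 56.6 CPM (0.36, 0.31 to 0.42). By cluster Spry1 had no single direction, being higher in 5 of 10 clusters and lower in 5, with 3 intervals on each side of 0 and a median log2 ratio of −0.01. Spry2 was higher in 7 and lower in 3, with 4 intervals above and 2 below 0.

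The Fgf10 difference held in most organoid FB clusters. Of 10 clusters with at least 20 cells of both libraries, it was lower with fibrogenic FBs in 8, with 7 intervals below 0. The median log2 ratio was −0.90. Fgf10 rested on few UMIs in a cluster led by Cdk8 (7 normal and 27 fibrogenic) and in one led by Hist1h2bj (2 and 5). Both are among the clusters where Fgf10 was lower. In a cluster led by the contractile genes Actg2, Cnn1 and Acta2 it was 20.8 CPM and 5.30 CPM (−1.79), and in the cycling cluster 16.4 CPM and 8.20 CPM (−0.92, −1.29 to −0.72). In the cluster where Fgf10 was highest, led by Thsd4 and Eepd1, it was 67.9 CPM and 73.3 CPM (0.11, −0.05 to 0.26). This cluster held 470 normal and 108 fibrogenic FBs. In a cluster led by Aqp1 and Alkal1, with 225 and 108 FBs, Fgf10 was 30.3 CPM and 34.0 CPM (0.16, −0.09 to 0.41). The FBs had a median of 51033 UMIs in the normal and 3935.5 UMIs in the fibrogenic library. After thinning, Fgf10 was seen in 6.24% (5.21 to 7.41) of normal and 3.07% (2.48 to 3.74) of fibrogenic FBs, leaving out 49 and 1765 cells, against 41.4% and 12.2% without thinning, and in 0% and 0.110% of the epithelial cells. Fgf7 had no single direction by cluster, being higher in 6 and lower in 4.

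Some barcodes counted as organoid FBs carried epithelial RNA. A set of 4 clusters (12 normal and 1005 fibrogenic cells, 1.40% of the FB UMIs) was led by AEC2 or keratin genes, and the summed AEC2 markers in FBs were 537 CPM and 886 CPM. Without these clusters the count of genes called was the same. Sftpc, which FBs do not make, was 571 CPM in FBs or 0.882% of its epithelial level, whereas Fgfr2 in FBs was 34.4 CPM or 19.4% of the epithelial level. Of 52 other pathway genes measured in organoid FBs, the carrier Fgfbp3 was called higher (4.88 and 10.9 CPM) and the metabolic hormone gene Fgf21 lower (13.9 and 5.79 CPM), beside 0.274% and 0.676% of all genes. The highest other ligand was Fgf23 (0.05), the highest and lowest heparan sulphate genes were Hs6st2 (0.87) and Gpc3 (−0.74), the adaptors ran from Plcg1 (−0.14) to Shb (0.23), the feedback genes from Etv1 (−0.90) to Dusp4 (0.35), and Flrt3 (−0.59) was the lowest binding protein.

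In the organoid epithelium, which receives the FB ligands, none of the 10 genes was called between normal and fibrogenic FB support, beside 0.355% of the 16638 genes measured. Fgfr2, the receptor for Fgf7 and Fgf10, stood at 193 CPM (190.1 to 196.2) in 1935 epithelial cells with normal FBs and at 156 CPM (153.3 to 159.6) in 2341 with fibrogenic FBs, a log2 ratio of −0.30 (−0.34 to −0.27). Spry1 was 54.4 CPM and 41.2 CPM (−0.39, −0.47 to −0.33), while Spry2 went the opposite way, with 35.8 CPM and 44.7 CPM (0.32, 0.25 to 0.40). The levels of the other receptors were 1.58 and 1.93 CPM (Fgfr1), 3.12 and 3.17 CPM (Fgfr3) and 1.10 and 1.47 CPM (Fgfr4).

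Except for Fgf18, the ligands were as small a share of their FB level in the epithelium as a collagen gene was. Over both libraries, Fgf2, Fgf7, Fgf10 and Fgfr1 in epithelial cells were 2.35%, 1.70%, 1.08% and 1.67% of their FB levels, close to the 1.91% of the collagen gene Col1a1. Part of this came from a cluster with the FB genes Mgp and Col1a2 among its leading genes. Its 22 cells with normal FBs held 148 UMIs of Fgf2, 55 of Fgf7 and 69 of Fgfr1, against 129, 62 and 21 in 1065 AEC2-like cells. With fibrogenic FBs its 142 cells held 72, 22 and 28, against 115, 80 and 36 in 778 AEC2-like cells. By library, the epithelial Fgf2 was 4.47 and 4.91 CPM, Fgf7 1.80 and 2.73 CPM and Fgf10 0.247 and 0.261 CPM. Fgf18 was different, at 7.79 CPM with normal and 5.83 CPM with fibrogenic FBs (log2 ratio −0.36, −0.61 to −0.23), which was 134% of its FB level over both libraries. By single cluster it was higher with fibrogenic FBs in 6 of 13 and lower in 5, and no interval left out 0. The summed FB markers in the epithelium were 188 CPM and 245 CPM.

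After thinning to 2000 UMIs, Fgfr2 was seen in 28.8% (26.7 to 30.9) of epithelial cells with normal FBs and 23.9% (22.0 to 26.0) with fibrogenic FBs, against 85.9% and 64.0% without thinning, and 137 and 516 cells were left out. Spry1 was seen in 11.2% (9.76 to 12.7) and 6.90% (5.78 to 8.17), and Spry2 in 6.34% (5.26 to 7.57) and 8.77% (7.51 to 10.2), although without thinning the Spry2 share ran the other way (62.1% and 45.0%). In the 400 and 393 epithelial cells without a collagen UMI, the Spry2 log2 ratio was −0.08 and that of Fgfr2 was −0.08, while that of Spry1 was −0.46. These cells were kept at any depth, so barcodes of few UMIs entered the set more readily. The part of depth in these values was not tested. In FBs the thinned Fgfr2 share was 6.91% and 7.58%.

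By epithelial class, Fgfr2 was highest in AEC2-like cells and in cycling cells and lowest in PATS-like cells, which carry markers of the pre-alveolar type 1 transitional state. With normal FBs it was 227 CPM in AEC2-like, 224 CPM in cycling, 106 CPM in AEC1-like and 67.8 CPM in PATS-like cells. AEC2-like and cycling cells did not differ (log2 ratio −0.02, −0.08 to 0.04), while PATS-like cells lay below AEC2-like cells by a log2 ratio of −1.73 (−1.87 to −1.63) with normal and −1.61 (−1.73 to −1.51) with fibrogenic FBs. AEC1-like cells lay below by −1.09 and −1.13. With fibrogenic FBs the 4 levels were 195 CPM, 201 CPM, 88.8 CPM and 63.4 CPM in the same order of classes. With fibrogenic support the level was lower in cycling cells (−0.15, −0.26 to −0.05) and AEC1-like cells (−0.25, −0.42 to −0.10), and in PATS-like cells the difference was within counting error (−0.09, −0.25 to 0.06). Over all AEC2-like cells the log2 ratio was −0.22 (−0.26 to −0.18), but this class was spread over its 6 clusters differently in the libraries.

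A cluster led by St6galnac3 held 297 AEC2-like cells with normal and 71 with fibrogenic FBs, a cluster led by Cyp2c40 held 278 and 81, and a cluster led by Ntn1 held 135 and 282. Fgfr2 was 297 CPM and 292 CPM in the St6galnac3 cluster (−0.03, −0.12 to 0.07), 189 CPM and 184 CPM in the Cyp2c40 cluster (−0.04, −0.17 to 0.08) and 168 CPM and 167 CPM in the Ntn1 cluster (−0.01, −0.12 to 0.10). It was nearly level within these clusters, which the libraries filled most unequally, and highest of them in the St6galnac3 cluster. The part of this uneven filling in the difference over all AEC2-like cells was not tested. Of the other AEC2-like clusters, the interval took in 0 in the one led by Bex2 (−0.10, −0.20 to 0.01) and lay below 0 in those led by Zmat4 (−0.16) and Batf3 (−0.28). The unnamed epithelial cells, 250 with normal and 988 with fibrogenic FBs and mostly of few UMIs, held 81.1 CPM and 132 CPM Fgfr2 (0.70, 0.45 to 0.97), and these too were spread over clusters differently. Of the 175 normal UMIs, 126 came from 22 cells of a cluster with the FB genes Mgp and Col1a2 among its leading genes, and of the 400 fibrogenic UMIs 224 came from a cluster led by Cdk8 and AY036118. Within the first the log2 ratio was 0.14 (−0.26 to 0.54) and within the second −0.38 (−1.19 to 0.55), and the one unnamed cluster whose interval lay above 0 rested on 3 and 43 UMIs.

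Both inhibitors were lowest in PATS-like cells. Spry1 was 61.4 CPM and 49.6 CPM in AEC2-like cells with normal and fibrogenic FBs, 59.8 CPM and 47.4 CPM in cycling cells, 51.0 CPM and 39.7 CPM in AEC1-like cells, and 15.8 CPM and 17.6 CPM in PATS-like cells. The intervals of its log2 ratio lay below 0 in cycling and AEC1-like cells, and that of PATS-like cells ran from −0.16 to 0.47. Over all AEC2-like cells the Spry1 log2 ratio was −0.30 (−0.39 to −0.22), with the same uneven spread over clusters. By AEC2-like cluster it was −0.07 (St6galnac3), 0.03 (Cyp2c40), 0.00 (Zmat4) and −0.15 (Bex2), all with intervals that took in 0, and −0.49 (Ntn1) and −0.78 (Batf3) with intervals below 0. Spry2 was higher with fibrogenic FBs in AEC2-like cells (39.7 and 50.0 CPM; 0.33, 0.24 to 0.43), cycling cells (34.1 and 49.7 CPM; 0.53, 0.32 to 0.77) and PATS-like cells (20.8 and 30.2 CPM; 0.51, 0.28 to 0.80), and in AEC1-like cells the interval took in 0 (32.1 and 36.6 CPM; −0.08 to 0.46). For Spry2 the intervals of 2 of the 6 AEC2-like clusters lay above 0 and those of the other four took in 0. By single cluster of all epithelial cells, Spry2 was higher in 12 of 13 clusters with 5 intervals above 0, Fgfr2 lower in 11 of 13 with 4 below 0, and Spry1 lower in 9 of 13 with 4 below 0.

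Fgfr3 and Fgf18 marked AEC1-like cells. Fgfr3 was 13.5 CPM and 9.54 CPM in AEC1-like cells against 1.67 CPM and 1.93 CPM in AEC2-like cells, log2 ratios of 2.44 with normal and 1.84 with fibrogenic FBs. Fgf18 was 16.1 CPM and 15.1 CPM against 7.08 CPM and 4.94 CPM (1.08 and 1.44). Fgf1, a ligand for all 4 receptors, was likewise higher in AEC1-like cells, at 72.1 CPM and 83.6 CPM against 30.2 CPM and 32.2 CPM in AEC2-like cells. These are descriptions of cells grouped by other genes, and the thinly counted Fgfr3 (108 and 55 UMIs in AEC1-like cells) has a wide interval, −0.996 to −0.02 for fibrogenic over normal.

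Etv5, a target of FGF signalling that keeps AEC2 identity, followed the classes. It was 138 CPM and 135 CPM in AEC2-like, 104 CPM and 89.6 CPM in cycling, 69.3 CPM and 76.7 CPM in AEC1-like and 13.7 CPM and 8.5 CPM in PATS-like cells. PATS-like cells lay below AEC2-like cells by log2 ratios of −3.24 and −3.84. Etv4 did not share this order, with 18.5 CPM and 18.2 CPM in PATS-like, 18.1 CPM and 13.9 CPM in AEC2-like, 27.9 CPM and 30.4 CPM in cycling and 2.12 CPM and 1.56 CPM in AEC1-like cells. Dusp6 in PATS-like cells, at 49.7 CPM and 56.8 CPM, was nearer to its AEC2-like level of 64.6 CPM and 64.1 CPM. Dusp5 was higher in PATS-like than in AEC2-like cells, at 21.1 CPM against 9.24 CPM with normal FBs (log2 ratio 1.11, 0.94 to 1.44). With fibrogenic FBs it was 24.7 CPM against 11.7 CPM (1.02, 0.86 to 1.30). The feedback genes Dusp4, Spry4 and Spred1 were lower in PATS-like cells in both libraries. Between the libraries, none of the 51 other pathway genes measured in the epithelium was called. By list, the lowest and highest log2 ratios were Fgf11 (−0.19) and Fgf16 (0.45), Fgfbp1 (−0.59) and Flrt2 (0.66), Gpc3 (−0.48) and Sulf1 (0.75), Plcg1 (−0.18) and Ptpn11 (0.10), and Dusp4 (−0.36) and Dusp5 (0.41).

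**Figure D4:**
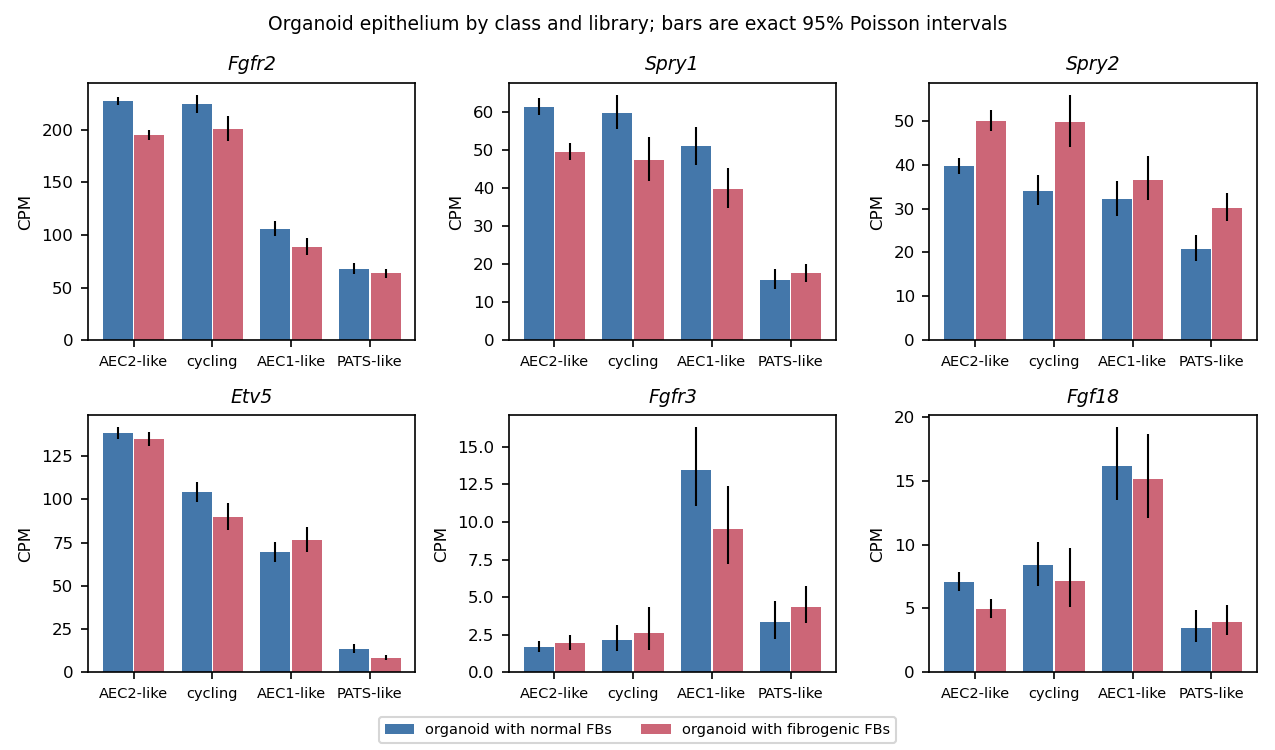
Levels in CPM of Fgfr2, Spry1, Spry2, Etv5, Fgfr3 and Fgf18 in 4 classes of organoid epithelial cells, with normal and fibrogenic FBs; bars start at 0 and lines are exact 95% Poisson intervals of 1 library each. Fgfr2, Spry1 and Etv5 are lowest in PATS-like cells, Spry2 is higher with fibrogenic FBs, and Fgfr3 and Fgf18 are highest in AEC1-like cells.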

How the data were processed

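Single-cell RNA counts of 6 mouse libraries, 1 per condition, were used. The values are UMI counts per gene and barcode, deposited by the authors as 10x matrices. The labels name assembly mm10, Cell Ranger 3.0.1 and Seurat 3. The single-dose libraries used a different kit version and gene annotation from the rest, so levels were not set across experiments, except in the correlations over clusters of both. The members and gene lists were chosen with earlier results of these data known.

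Clusters with over 25% mitochondrial or 0.5% erythrocyte counts on average were removed, as were barcodes more than 3 scaled MADs above their cluster's median in either. Cells were clustered per experiment without the listed genes (2000 variable genes, 30 principal components, 20 neighbours, Leiden resolution 1; scanpy 1.11.5, scikit-learn 1.9.0, igraph 0.11.9, Python 3.11.15, numpy 2.4.6, scipy 1.17.1, pandas 2.3.3, matplotlib 3.10.9). FBs and epithelial cells were then clustered alone. Clusters were called X-like from at least 3 raised markers making up 50% of a list, with AEC2-like clusters taken at 4 of 7 markers, a cluster of FBs led by cycling genes was left unnamed, and clusters under 20 cells were not described. Scrublet marked 0 to 11 barcodes per library, too few to show that it worked in the large libraries, so doublets were kept, with their removal as an alternative.

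Counts were summed per library and cell type and divided by the summed UMIs to give CPM, with exact 95% Poisson intervals. Log2 ratios were taken after adding 1 CPM, and the interval of the rate ratio was an exact conditional one. Genes needed 20 UMIs over both groups, and a log2 ratio of 1 either way was a call. Shares of cells were taken after thinning each cell to 2000 UMIs, with exact Clopper-Pearson intervals. With 1 library of 3 pooled mice per condition there was no test between conditions, and intervals cover counting error only. The floor for a group without a UMI was 3 UMIs. The ratios and intervals were tested on simulated data.

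Named genes were the 10 members in every comparison, other pathway genes past the threshold, the highest and lowest of each sub-list, and the 3 genes most alike to Fgf7, Fgf10, Fgf18 and Fgfr2. Some of these most alike genes are not reported here. Alternatives covered the choice of cells, barcode filters, depth, clustering resolution, listed genes kept in clustering, doublets, pseudocount, scaling, count minimum, cycling cells, free RNA and thinning. Restricting FBs to MatrixFB-like clusters, leaving out clusters led by markers of the other class, and centring levels within each experiment were added after seeing the data.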

Additional observations from a re-analysis of the deposited data

Results flagged for a closer look

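Several of the 10 genes had log2 ratios of opposite sign in different cells or experiments, and none of these differences was tested, since each rests on 1 library per condition. Against single-dose lung FBs, organoid FBs differed by 1.57 for Fgf7 (−1.27 in lung, 0.30 in organoids), by 0.75 for Spry1 (−0.48 and 0.26), by −0.88 for Fgf2 (0.65 and −0.23) and by −0.76 for Fgfr2 (0.69 and −0.07). Against repetitive lung FBs, organoid FBs differed by 1.35 for Spry2 (−0.99 in lung, 0.36 in organoids), by 0.75 for Fgf7 (−0.44 and 0.30), by 0.61 for Spry1 (−0.35 and 0.26) and by −0.33 for Fgfr2 (0.26 and −0.07). By organoid FB cluster, Fgf7 was higher in 6 of 10 and lower in 4, and Spry1 was higher in 5 and lower in 5. By repetitive FB cluster, Fgf7 was higher in 4 of 7 and lower in 3, and Spry1 was lower in 6. The lung FBs were sorted straight from the tissue and the organoid FBs had grown for 2 weeks with AEC2s. The single-dose libraries also differed from the organoid ones in kit version and gene annotation, and the repetitive ones in dosing. The parts of culture and of these other factors cannot be told apart in these differences.

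Within the organoid libraries, the epithelium differed from the FBs by −0.82 for Fgf18 (0.46 in FBs, −0.36 in epithelium) and by −0.65 for Spry1 (0.26 and −0.39). By epithelial cluster, however, Fgf18 had no single direction, with no interval that left out 0. By FB cluster Spry1 had no single direction either, being higher in 5 of 10 and lower in 5. Both cell types came from the same libraries.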

How the results depend on the processing

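No paired analysis was possible because each condition was 1 library and no result came from a test. Of the alternatives run for each count of genes called, 13 of 15 in single-dose FBs, 12 of 14 in repetitive FBs, 14 of 15 in organoid epithelium and 12 of 14 in organoid FBs kept the count within 1.5 times. With 5 CPM added in place of 1, the count was 2 in single-dose FBs (Fgf7, Fgfr4), 1 in repetitive FBs (Fgf18) and 0 in organoid FBs (Fgf10 at −0.87). With MatrixFB-like clusters alone, added after seeing the data, it was 1 in single-dose FBs (Fgfr2, higher) and 0 in repetitive FBs, and the log2 ratio turned to 0.26 for Fgf7 in single-dose and to 0.32 for Fgfr4 in repetitive FBs. With all barcodes of the organoids it was 0 (Fgf10 at −0.73), and in epithelial cells without a collagen UMI it was 2 (Fgf2 higher at 1.59, Fgf18 lower at −1.08). The cells without a collagen UMI were kept at any depth, which favours barcodes of few UMIs. The share of all genes called was taken under the main settings alone, so these counts have no such share beside them. The cause of these shifts was not tested. Of the 40 pairs of thinned shares, 19 had intervals that did not overlap, against 32 without thinning. The matching share over all genes was not taken, so neither count can be read as a result about these genes. Leaving aside the alternatives added after seeing the data, Fgf7 and Fgfr4 stayed past 1 in single-dose FBs in 14 of 14, Fgf18 in 13 and Fgfr3 in 8, with Fgfr3 at −0.60 outside the MatrixFB-, MyoFB- and MEFB-like, smooth muscle and cycling clusters. In repetitive FBs Fgf18 stayed past 1 in 13 of 13, Fgfr4 in 11 and Spry2 passed it in 4, and outside those clusters Fgfr4 was −0.74 and Spry2 −1.18. In organoid FBs Fgf10 stayed past 1 in 11 of 13. Centring on the median gene moved repetitive log2 ratios by 0.10 and turned Fgf2 from 0.04 to −0.06. Leaving out cycling clusters and clusters of few UMIs was not run for repetitive FBs, where no cluster met either condition.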

Other observations

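Other cells of the sorted lung libraries also held these genes. In the repetitive experiment, 141 smooth muscle and mural cells of both libraries held Fgf18 at 145 CPM (117 to 178), against 6.26 CPM in the FBs, along with Fgfr2 at 130 CPM. Of these cells 17 were from the PBS and 124 from the bleomycin library. The 66 barcodes called epithelial in the same experiment held Fgfr2 at 481 CPM (435 to 531), from 395 UMIs.

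T cells held Fgf7 at 62.0 CPM and Fgf10 at 52.2 CPM over both repetitive libraries, 45.6% and 33.0% of the FB levels. Col1a1 in them was 30.9% of its FB level. Whether T cells made any of the Fgf7 or Fgf10 themselves was not tested. In the single-dose experiment, with 48 T cells, the T cell level of Fgf7 was 22.7% of the FB level, that of Fgf10 67.6% and that of Col1a1 18.6%.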
